A study of Rattus norvegicus with 9 samples.

Results

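Aminoacyl-tRNA synthetases are the enzymes that attach each amino acid to its tRNA. The 36 synthetase genes described here were chosen by name: they are the listed cytosolic and mitochondrial synthetases whose transcripts, summed by gene name, averaged at least 1 CPM over 9 libraries of rat left ventricle, where CPM sets a count against the scaled total of its library. All 36 listed names reached that level, 20 of them cytosolic and 16 mitochondrial (names ending in 2), among 22608 gene names, of which 13704 averaged at least 1 CPM. The RNA came from the hearts of Sprague-Dawley rats, aged 8 weeks plus 28 days per the labels, which state no dose. The rats had received saline, angiotensin II (Ang II), or Ang II together with sodium butyrate (NaBu) for 28 days, and each of the 3 groups holds 3 libraries. The peptide hormone Ang II constricts vessels and is given to rodents to bring on cardiac fibrosis, and butyrate, a product of gut bacteria, inhibits histone deacetylases. Whether each library is a separate animal is not stated, so p-values measure the spread between libraries, which may be technical.

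Each cytosolic synthetase supplies charged tRNA to the ribosomes of the cytosol, and a separate set of nuclear genes supplies the ribosomes inside mitochondria, which make a few subunits of the respiratory chain. Several cytosolic enzymes are held together with the scaffold proteins Aimp1, Aimp2 and Eef1e1 in the multisynthetase complex. Uncharged tRNA activates the kinase Gcn2 (Eif2ak4), which phosphorylates eIF2 and raises translation of the transcription factor ATF4, and ATF4 with its C/EBP partners binds a composite element upstream of amino acid response genes, many cytosolic synthetases among them.

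The composite element was looked for in the promoters because it divides the family by sequence, independently of any value measured here. RefSeq promoter windows of build GRCr8, which reach from 250 bases before to 50 after a start site, were at hand for 33 of the 36 genes. The element was written as TGATGNAA, or TTNCATCA on the other strand, and 3.98% of all 33469 windows held it. Of the 17 cytosolic genes with a window 7 held it, and of the 16 mitochondrial genes 0 did. The 7 were Aars, Cars, Iars, Mars, Nars, Tars and Yars, and each of them held the exact form TGATGCAA or its reverse TTGCATCA, which 0.795% of all windows held. All 7 were among the 12 genes with a window on the list of cytosolic synthetases known as ATF4 targets, and none of the other 5 cytosolic genes with a window held it. The 5 stretches below, each read 5′ to 3′ on the strand of its gene, show the element in the genes where it lies before the start site. They were picked by their match to the pattern, so the shared letters follow from the search, apart from the base written N. Capitals mark the element.
Aars, chr19:55908345-55908402, + strand: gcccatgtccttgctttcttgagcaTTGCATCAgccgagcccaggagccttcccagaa
Iars, chr17:15193653-15193701, − strand: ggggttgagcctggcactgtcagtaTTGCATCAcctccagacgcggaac
Mars, chr7:65023754-65023795, − strand: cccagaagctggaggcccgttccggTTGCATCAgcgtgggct
Nars, chr18:60275783-60275821, − strand: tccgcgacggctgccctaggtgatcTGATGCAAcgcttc
Tars, chr2:62114803-62114854, − strand: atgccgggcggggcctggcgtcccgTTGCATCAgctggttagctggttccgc

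Counted from the start site of the window, with that base as 1, the element began at -112 in Aars, -24 in Iars, -17 in Mars, -14 in Nars and -27 in Tars. In Cars it began at 18 and in Yars at 39, downstream of the start site, and Aars held a further TTTCATCA at 10. The start sites of Aars, Cars, Iars and Mars lie inside the gene spans on record, which begin further upstream. A match is a description of these letters and not of binding.

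The 2 histidyl-tRNA synthetase genes are shown because a cytosolic and a mitochondrial member share 1 stretch of DNA between their starts. In the promoter table the start site of Hars, on the − strand of chromosome 18, is at 28672712 and that of Hars2, on the + strand, at 28672856, so 143 bases lie between them. The gene span of Hars2 begins earlier, at 28672810, and takes in the second of the motifs below. These bases are printed on the + strand, with capitals for the ETS-type sequence ACTTCCGG (CCGGAAGT on the other strand), which they hold at 2 places.
Hars and Hars2, chr18:28672713-28672855, + strand: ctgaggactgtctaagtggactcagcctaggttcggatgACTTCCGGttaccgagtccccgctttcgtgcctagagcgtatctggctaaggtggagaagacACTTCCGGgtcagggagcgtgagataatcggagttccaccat

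CCGGAAGT or its reverse stood in 3.81% of all windows, in 7 of the 17 cytosolic genes with a window (Cars, Farsa, Hars, Lars, Mars, Nars and Wars) and in 3 of the 16 mitochondrial genes (Hars2, Pars2 and Rars2).

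Library totals ran from 29284780 to 49865446 deposited estimated counts, and 15467 genes were tested, all 36 synthetases among them. The ventricular cardiomyocyte markers were present in every library, with 0 of 10 at 0 and a summed level of 48680 to 80720 CPM. Saline library 2 stood apart through atrial genes, whose median log2 ratio to the mean of the 9 libraries was 8.08 there, 2.89 in saline library 3 and -1.97 to 0.01 in the other 7. The same library had the highest medians of smooth muscle (1.18), fibroblast (0.59) and macrophage (0.40) markers, and saline library 3 the next highest of fibroblast markers (0.47). The cardiomyocyte markers had their lowest median in saline library 2, at -0.80. In whole ventricle, fewer cells of a type and less RNA per cell cannot be told apart. The authors deposited 1 table for each group, and effects of group and table cannot be told apart either.

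Ang II and saline hearts were compared first, to ask whether the hormone alone moved the synthetases. No synthetase passed the test in edgeR (quasi-likelihood, Benjamini-Hochberg adjustment over all genes tested): 0 of 36, against 0% of the 15467 genes. At an unadjusted p under 0.05 there were 0 of 36, against 5.94% of all genes, and DESeq2 called 57 genes (0.369%) and 0 synthetases. The log2 differences of the 36 genes ran from -0.21 to 0.21. The cytosolic genes had a median of -0.05, with 6 of 20 higher in Ang II, and the mitochondrial genes had a median of 0.03, with 10 of 16 higher, beside a median of -0.01 and 49% higher over all genes. The libraries of these groups overlapped for every one of the 36, where 4.94% of all genes were higher and 4.97% lower without overlap. The median standard error of a single log2 difference was 0.12 for cytosolic and 0.15 for mitochondrial genes. With 3 libraries a group, differences of that size, and some above it, could not be told from 0. Cars2, for example, differed by 0.21 (SE 0.15) with an unadjusted p of 0.1775 in edgeR.

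Among cytosolic genes the lowest differences were those of Cars, the cysteinyl enzyme (-0.19, SE 0.12), Tars, the threonyl enzyme (-0.18, SE 0.11), and Gars, the glycyl enzyme that serves both cytosol and mitochondria (-0.12, SE 0.16). The highest were those of Rars, the arginyl enzyme (0.12, SE 0.11), Yars, the tyrosyl enzyme (0.08, SE 0.12), and Nars, the asparaginyl enzyme (0.02, SE 0.09). Among mitochondrial genes Rars2 (-0.21), Sars2 (-0.12) and Mars2 (-0.10) were lowest, and Cars2 (0.21), Wars2 (0.21) and Hars2 (0.12) were highest. None of these passed the test, with adjusted p from 0.918 upward in edgeR. Cell type markers differed between these groups too, with 0 called. Of the fibroblast markers 0 of 10 were higher in Ang II (median -0.54). Of the macrophage markers 0 of 8 were (median -0.39), and of the smooth muscle markers 0 of 6 (median -0.32). Of the erythroid markers 6 of 6 were higher (median 0.685) and of the endothelial markers 7 of 8 (median 0.09). The cardiomyocyte markers were higher for 5 of 10 (median -0.02). Their part in the synthetase values was not tested.

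NaBu added to Ang II was compared with Ang II alone, the comparison that addresses the butyrate treatment. Most synthetase genes of both compartments lay above the Ang II group, by small amounts, and 1 gene passed the test. Of the 20 cytosolic genes 18 were higher (median log2 difference 0.20), and of the 16 mitochondrial genes 14 were higher (median 0.23), while 47.3% of all genes were higher and their median was -0.03. In edgeR 1 of 36 synthetases was called, Farsb, against 1.6% of all genes (248 genes, 100 higher and 148 lower). At an unadjusted p under 0.05 there were 6 cytosolic and 4 mitochondrial genes, all 10 higher with NaBu, where 22.4% of all genes were under that level. All 3 NaBu libraries lay above all 3 Ang II libraries for 13 of the 20 cytosolic and 4 of the 16 mitochondrial genes, against 18.1% of all genes, and 0 of the 36 lay below without overlap, against 17.5%. DESeq2 called 2 of the 36, Farsb and Tars2, against 9.83% of all genes. Without Ang II library 1 the mitochondrial median was 0.14, and without NaBu library 6 it was 0.08, so these libraries decided part of that value. The number of synthetases that were higher, 32 of 36, ran from 31 to 33 when single libraries were left out.

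**Figure D1:**
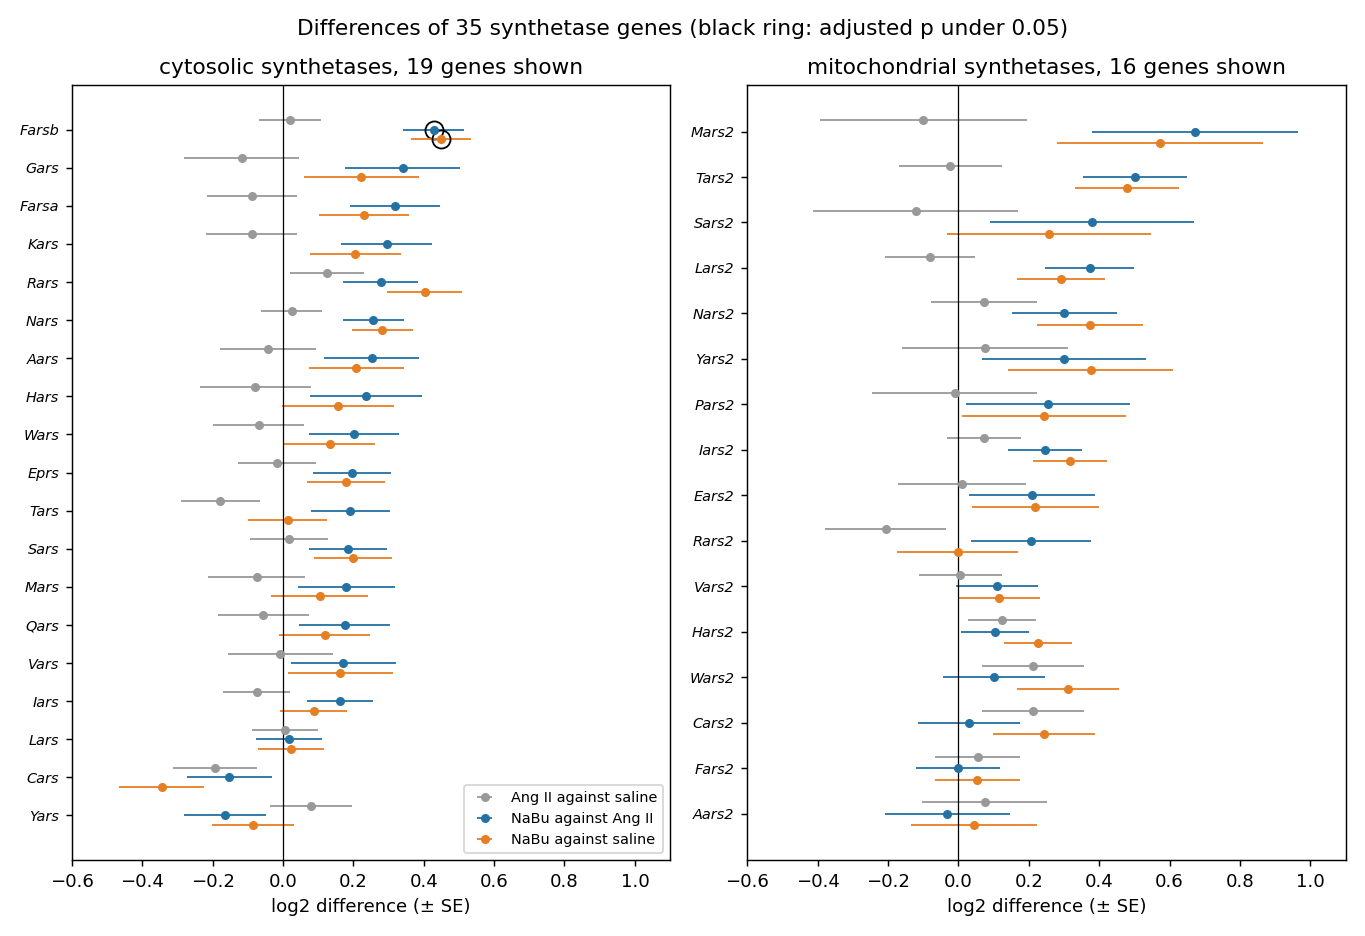
Log2 differences (horizontal axis, with SE as bars) of 19 of the 20 cytosolic and all 16 mitochondrial synthetase genes in 3 comparisons, ordered by NaBu against Ang II. Ang II against saline (grey) scatters around 0, most values with NaBu (blue against Ang II, orange against saline) lie to the right of 0, and the black rings mark Farsb, the gene that passed the test.

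Farsb encodes the β chain of the cytosolic phenylalanyl-tRNA synthetase, which pairs with the α chain made from Farsa, and lies on chromosome 9, 87336321 to 87395546 in GRCr8. Its level was 27.4, 24.7 and 26.3 CPM in saline libraries 1, 2 and 3, and 25.8, 27.6 and 26.1 CPM in Ang II libraries 1, 2 and 3. In NaBu libraries 2, 4 and 6 it was 35.95, 35.6 and 35.4 CPM. The NaBu libraries lay within 1 CPM of each other and above all 6 others. Farsb rose with NaBu by 0.43 on the log2 scale against Ang II (SE 0.09, edgeR adjusted p = 0.0445), a 1.34-fold difference, and by 0.45 against saline (SE 0.09, edgeR adjusted p = 0.026). Against Ang II it was called in 7 of 18 alternative fits and lost without saline library 1 or any 1 of the Ang II or NaBu libraries, with edgeR adjusted p from 0.0187 to 0.2 over all fits that left out 1 library. Its direction and size held in those fits, with log2 differences of 0.42 to 0.48. Against saline it was called in 9 of 18 alternative fits and lost without Ang II library 2 or 3 or any 1 NaBu library, with edgeR adjusted p up to 0.12 over the fits that left out 1 library.

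Farsa, the catalytic α chain, read 19.2, 15.9 and 18.3 CPM in saline, 14.5, 18.6 and 17.1 CPM in Ang II, and 20.1, 22.7 and 19.8 CPM in NaBu. Its NaBu libraries also lay above all others, and its difference from Ang II was 0.32 (SE 0.13), with an edgeR adjusted p of 0.184 that missed the threshold. Fars2, the phenylalanyl enzyme of mitochondria, did not share this order. It read 29.8, 34.2 and 31.0 CPM in Ang II and 31.7, 30.7 and 32.6 CPM in NaBu, a log2 difference of 0.00 (SE 0.12).

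**Figure D2:**
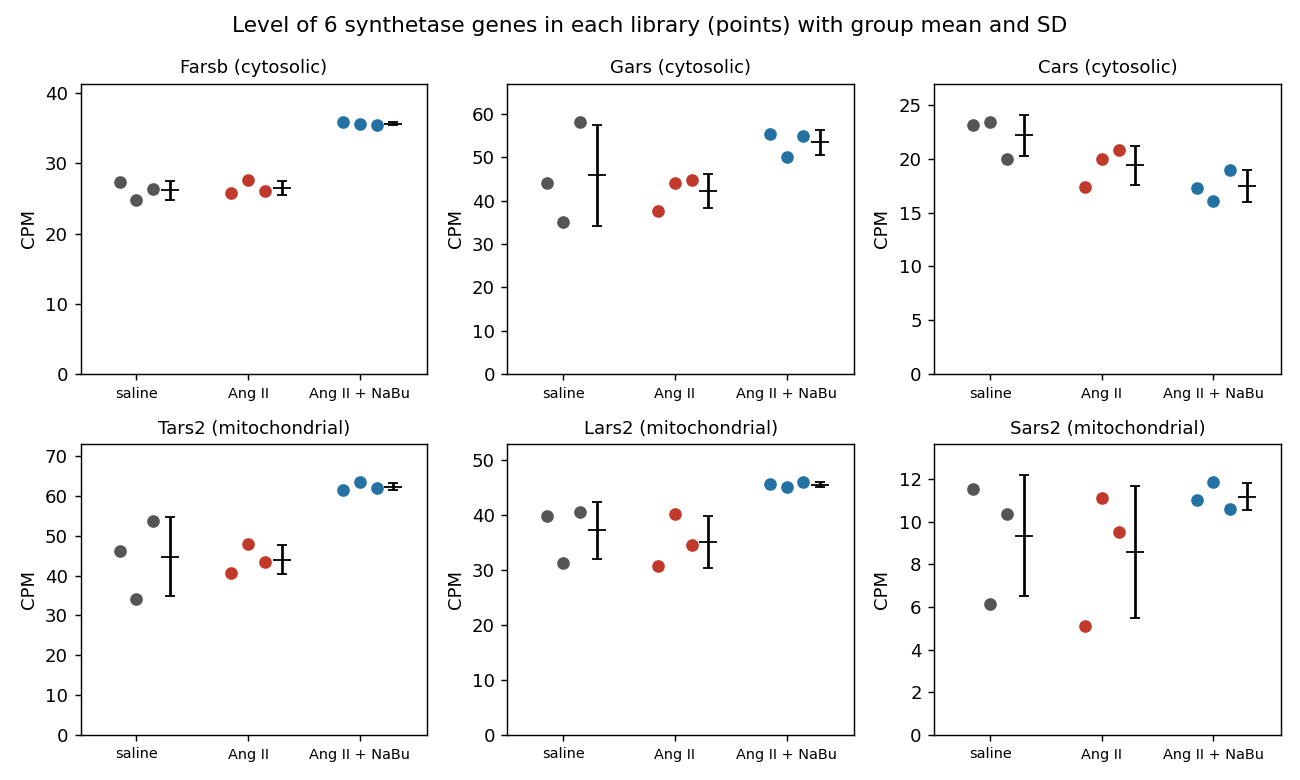
Level in CPM (vertical axes, from 0) of 6 synthetase genes in each library of the 3 groups, with the group mean and SD beside the points. Farsb and Tars2 are tight and high in the NaBu libraries, Cars is low there, and the low points of Gars, Tars2, Lars2 and Sars2 among the saline libraries are saline library 2.

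Gars, the glycyl enzyme, was at 37.7, 44.1 and 44.7 CPM in Ang II and 55.4, 50.1 and 54.8 CPM in NaBu, with 44.1, 35.1 and 58.3 CPM in saline. The NaBu libraries of Gars lay above its Ang II libraries, and saline library 2 was the lowest of all 9. Saline library 3 was the highest of all 9, so saline and NaBu overlapped. The log2 difference of Gars from Ang II was 0.34 (SE 0.16, edgeR adjusted p = 0.249), which did not pass. Kars, the lysyl enzyme, which also serves both compartments, differed by 0.30 (SE 0.13) without passing.

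Rars and Nars, the arginyl and asparaginyl enzymes, also lay above Ang II. Nars spanned only 48.7 to 51.2 CPM over the 6 saline and Ang II libraries and was at 57.4, 57.2 and 65.5 CPM in NaBu. Rars was at 44.9, 38.9 and 50.9 CPM in saline, 48.1, 50.6 and 48.1 CPM in Ang II and 58.2, 57.3 and 62.4 CPM in NaBu. Both were higher in every NaBu library than in any other. The differences from Ang II were 0.26 for Nars (SE 0.09, edgeR adjusted p = 0.126) and 0.28 for Rars (SE 0.11, edgeR adjusted p = 0.165).

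At the other end stood Yars, Cars and Lars. Yars was at 21.5, 18.3 and 23.2 CPM in Ang II and 17.4, 18.6 and 20.3 CPM in NaBu, with 20.0, 19.7 and 20.1 CPM in saline. Cars was at 23.1, 23.5 and 20.0 CPM in saline, 17.4, 20.0 and 20.9 CPM in Ang II and 17.3, 16.1 and 19.0 CPM in NaBu. Lars, the leucyl enzyme, which also senses leucine for the growth kinase mTORC1, was at 69.8, 69.0 and 62.4 CPM in Ang II and 70.6, 65.2 and 68.0 CPM in NaBu. In all 3 genes the Ang II and NaBu libraries overlapped. The log2 differences were -0.17 for Yars (SE 0.12), -0.15 for Cars (SE 0.12) and 0.02 for Lars (SE 0.09), and none passed the test. Lars took a negative sign under 2 other scalings, -0.02 with upper-quartile factors and -0.09 with library totals.

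The 8 enzymes of the multisynthetase complex, Eprs, Lars and Rars among them, were all higher with NaBu than with Ang II, with a median of 0.19. None of the 8 passed the test, and 5 lay above Ang II without overlap, beside 18.1% of all genes. Their scaffolds, which are not synthetases, gave 0.23 for Eef1e1, 0.17 for Aimp2 and 0.10 for Aimp1, none of them past the test. By catalytic fold, 17 of the 19 class I enzymes (median 0.18) and 15 of the 17 class II enzymes (median 0.26) were higher.

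The cytosolic genes with the composite element in their promoter were described beside those without it. Of the 7 with it, 5 were higher in NaBu than in Ang II, with a median of 0.18 and a range from -0.17 to 0.26. Of the 10 with a window and no element all were higher, with a median of 0.20 and a range from 0.02 to 0.43. The 2 cytosolic genes with negative differences, Yars and Cars, both held the element, while Farsb held none. No test was made between these sets.

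Among mitochondrial genes the largest differences belonged to Mars2, Tars2 and Sars2. Mars2, the mitochondrial methionyl enzyme, was at 1.24, 1.74 and 2.26 CPM in Ang II and 2.71, 2.86 and 2.81 CPM in NaBu, with 2.01, 1.62 and 2.00 CPM in saline. Its NaBu libraries lay above all others, and the log2 difference from Ang II was 0.67 (SE 0.29, edgeR adjusted p = 0.21). Tars2, the mitochondrial threonyl enzyme, was at 46.3, 34.2 and 53.7 CPM in saline, 40.6, 47.9 and 43.5 CPM in Ang II and 61.6, 63.4 and 62.0 CPM in NaBu. Again the 3 NaBu libraries were the highest of the 9, and they were close together. Tars2 differed from Ang II by 0.50 (SE 0.15, edgeR adjusted p = 0.0951), which missed the threshold, and it was called in 4 of 18 alternative fits, DESeq2 among them.

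Sars2, the mitochondrial seryl enzyme, shows how single libraries shaped these values. It was at 5.12 CPM in Ang II library 1 and 6.14 CPM in saline library 2, and at 9.50 to 11.8 CPM in the remaining 7. Its difference of 0.38 (SE 0.29, edgeR adjusted p = 0.478) was 0.13 without Ang II library 1. Lars2, the mitochondrial leucyl enzyme, was at 30.7, 40.2 and 34.5 CPM in Ang II and 45.6, 45.0 and 46.0 CPM in NaBu, a difference of 0.37 (SE 0.13, edgeR adjusted p = 0.128), with its 3 NaBu libraries the highest of the 9. Iars2, the isoleucyl enzyme, differed by 0.25 (SE 0.11) with no overlap and did not pass.

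The 3 lowest mitochondrial differences were those of Aars2 (-0.03, SE 0.18), Fars2 and Cars2 (0.03, SE 0.15). Aars2, the alanyl enzyme, was at 18.8, 22.4 and 26.5 CPM in Ang II and 20.7, 23.5 and 22.1 CPM in NaBu. Cars2 was at 16.9, 19.7 and 17.5 CPM in Ang II and 18.3, 18.1 and 18.7 CPM in NaBu. Both overlapped between the groups. Hars2, which shares its promoter stretch with Hars, was at 39.5, 40.9 and 44.2 CPM in Ang II and 41.4, 45.0 and 47.5 CPM in NaBu (difference 0.10, SE 0.10). Hars was at 19.9, 23.0 and 24.0 CPM and 27.4, 28.1 and 23.2 CPM in the same groups (difference 0.24, SE 0.16), and neither passed.

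The remaining cytosolic genes, Aars, Eprs, Hars, Iars, Mars, Qars, Sars, Tars, Vars and Wars, lay 0.16 to 0.25 above Ang II. For 6 of them all NaBu libraries were above all Ang II libraries, beside 18.1% of all genes. These were Aars, Eprs, Iars, Sars, Tars and Vars. Tars, whose promoter holds the element, was at 38.9, 33.2 and 44.4 CPM in saline, 34.8, 35.0 and 33.0 CPM in Ang II and 40.1, 40.7 and 36.7 CPM in NaBu. The Ang II values of Tars lay close together at the low end of the saline range, and its NaBu values above them. The remaining mitochondrial genes, Ears2, Nars2, Pars2, Rars2, Vars2, Wars2 and Yars2, lay 0.10 to 0.30 above Ang II, each with overlap. Rars2 was at 10.4, 11.4 and 10.9 CPM in saline, 8.04, 10.7 and 9.52 CPM in Ang II and 12.5, 8.51 and 11.6 CPM in NaBu.

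The spread within groups differed between the genes. The coefficient of variation (CV) of cytosolic genes had a median of 14% in saline, 7.56% in Ang II and 5.68% in NaBu, and was under 10% for 7, 16 and 17 of the 20. For mitochondrial genes the medians were 11.2%, 13% and 6.7%. The tightest values were those of Farsb (0.728%) and Lars2 (1.05%) in NaBu and Yars (1.04%) in saline, and the widest those of Sars2 in Ang II (36.1%) and in saline (30.3%). Over all 9 libraries the highest level was 1.16 times the lowest in Lars and 2.31 times in Mars2 and in Sars2.

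**Figure D3:**
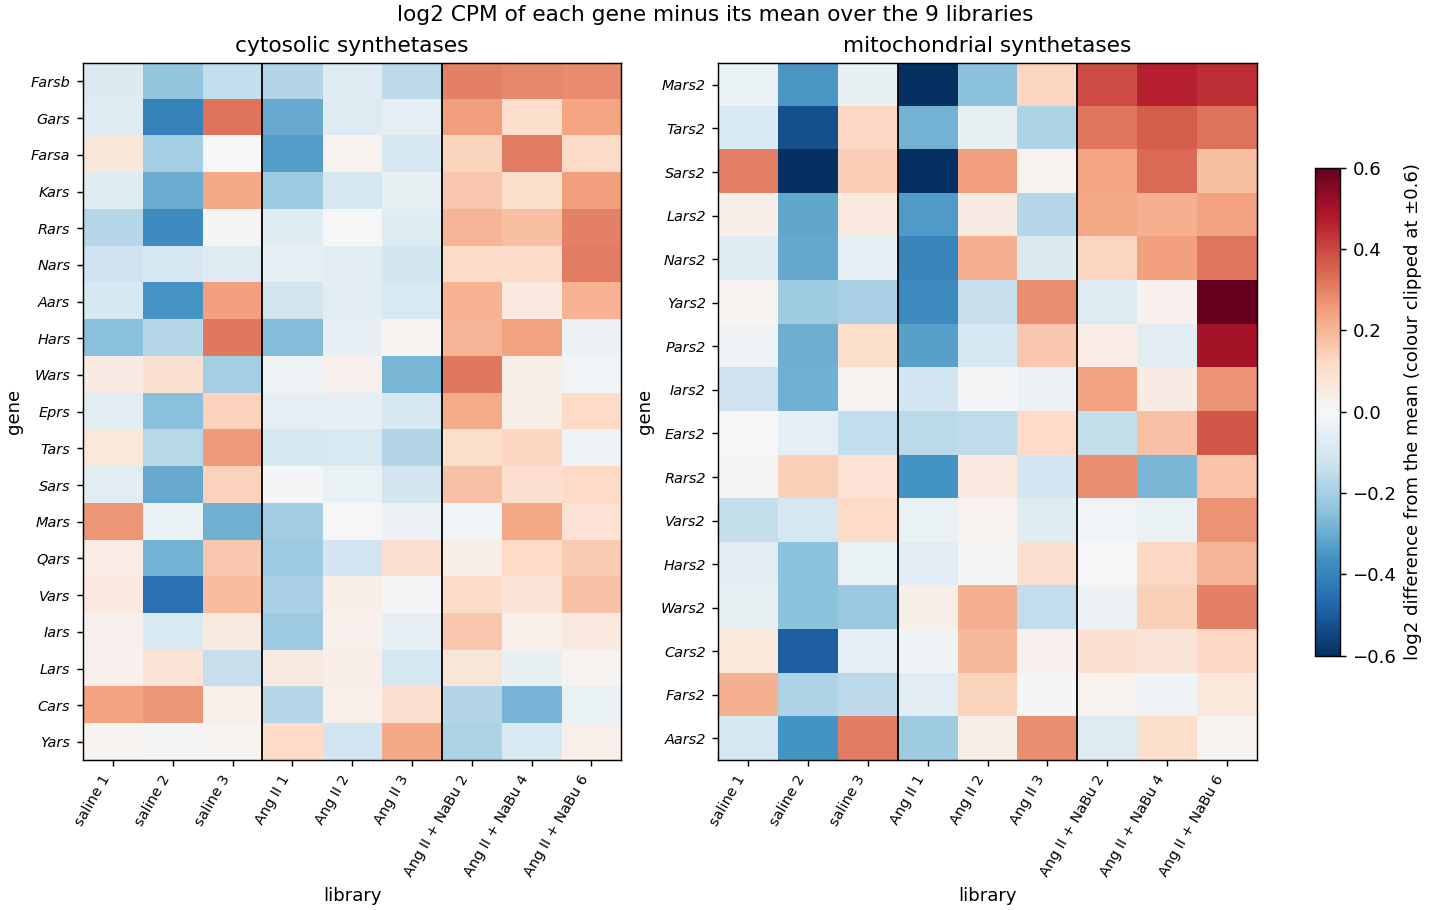
Log2 CPM of 35 of the 36 synthetase genes (rows) minus its mean over the 9 libraries (columns), cytosolic genes left and mitochondrial genes right, ordered by NaBu against Ang II, with colour clipped at 0.6 in either direction. Over all 36 genes, saline library 2 is the lowest library for 10 cytosolic and 7 mitochondrial genes, Ang II library 1 for 3 and 8, and NaBu library 6 is the highest for 9 of the 16 mitochondrial genes.

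The libraries can be read across the family by the median log2 ratio of its genes to their mean over the 9 libraries. For cytosolic genes it was 0.02, -0.22 and 0.05 in saline libraries 1, 2 and 3, -0.17, -0.05 and -0.06 in Ang II libraries 1, 2 and 3, and 0.15, 0.11 and 0.12 in NaBu libraries 2, 4 and 6. For mitochondrial genes it was -0.03, -0.29 and -0.01 in saline, -0.25, 0.03 and 0.01 in Ang II, and 0.07, 0.11 and 0.27 in NaBu. The NaBu libraries were the highest 3 of the 9 on both lists. Saline library 2 and Ang II library 1 were the lowest 2 on both. The cytosolic minus mitochondrial difference lay between -0.15 and 0.08, with values of either sign among the Ang II and among the NaBu libraries, and no test was made of it.

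Markers of heart muscle moved beside these medians. The 10 ventricular cardiomyocyte markers had medians of -0.01, -0.80 and 0.22 in saline, -0.16, -0.04 and -0.04 in Ang II and 0.35, 0.16 and 0.29 in NaBu. Of these 10 markers 9 were higher in NaBu than in Ang II (median 0.41, 0 called), and their summed level was 72540 to 80720 CPM in NaBu and 66000 to 68130 CPM in Ang II. The 8 endothelial markers went the other way, with 0 of 8 higher in NaBu (median -0.24, 1 called), summed levels of 1356 to 1574 CPM in NaBu and 1619 to 1858 CPM in Ang II, and their highest median, 0.26, in Ang II library 1. The 13 interferon response genes were also highest in that library, at 0.38. The part of any of these in the synthetase values was not tested.

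**Figure D4:**
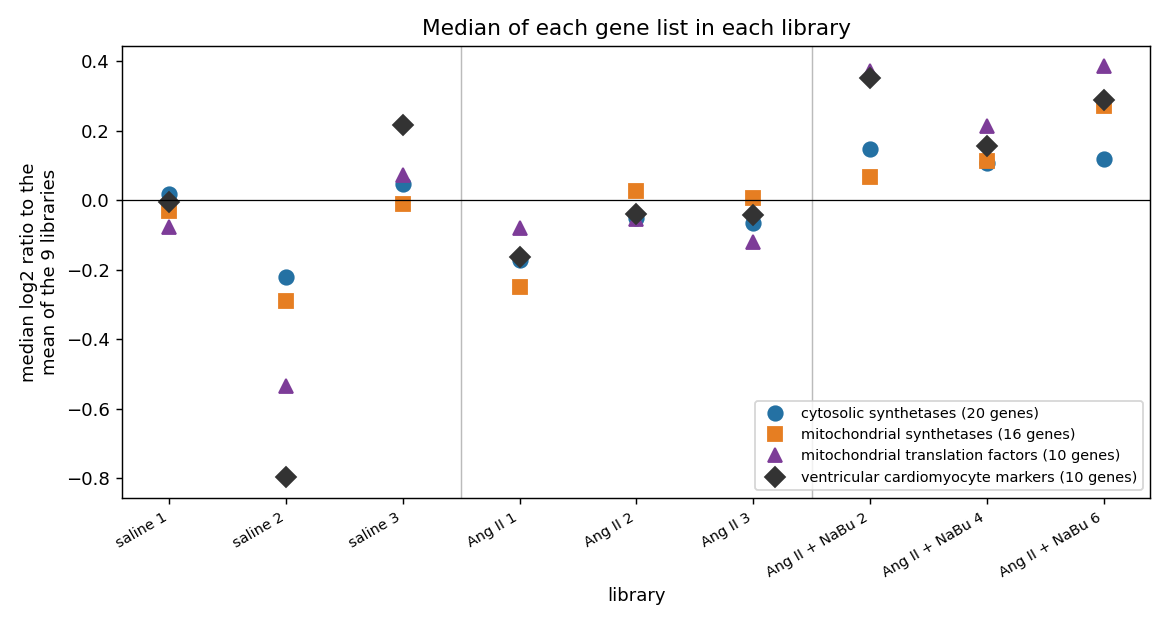
Median log2 ratio to the mean of the 9 libraries (vertical axis) of the cytosolic synthetases, the mitochondrial synthetases, the mitochondrial translation factors and the ventricular cardiomyocyte markers in each library (horizontal axis). Saline library 2 is the lowest on all 4 lists, with -0.80 for the cardiomyocyte markers, and on each list apart from the cardiomyocyte markers the 3 NaBu libraries are the highest of the 9.

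NaBu with Ang II was also compared with saline. The NaBu libraries are shared with the comparison above, and all 9 libraries enter the estimate of the spread in both, so the comparisons are not independent. Of the cytosolic genes 18 of 20 were higher with NaBu (median 0.17) and of the mitochondrial genes 15 of 16 (median 0.25), beside 44.7% of all genes and a median of -0.05. In edgeR 1 of 36 was called, again Farsb, against 5.06% of all genes (465 higher and 317 lower). At an unadjusted p under 0.05 there were 5 cytosolic genes, 4 higher and 1 lower, and 5 mitochondrial genes, all higher, against 24.6% of all genes. Without overlap, 5 cytosolic and 8 mitochondrial genes were higher, against 14.5% of all genes, and 1 cytosolic gene was lower, against 14.1%. The cytosolic median was 0.10 without saline library 2 and 0.29 without saline library 3. Cell type markers moved beside these values. Against saline 8 of 10 cardiomyocyte markers were higher with NaBu (median 0.44, 1 called), with summed levels of 48680 to 80490 CPM in saline. Of the fibroblast markers 0 of 10 were higher (median -0.43, 0 called) and of the smooth muscle markers 1 of 6 (median -0.72, 1 called). That 1 was Des, called higher, with a mean of 1529 CPM in saline and 2404 CPM in NaBu. Des was lowest in saline library 2, where the other smooth muscle markers were highest. Of the macrophage markers 1 of 8 were higher (median -0.29, 0 called) and of the endothelial markers 0 of 8 (median -0.15, 1 called). The part of all these markers in the synthetase values was not tested.

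The cytosolic gene that was lower without overlap was Cars, whose values above give 3 NaBu libraries below all 3 saline libraries, and it lay at -0.34 on the log2 scale (SE 0.12), which did not pass (edgeR adjusted p = 0.116). Rars was 0.40 above saline (SE 0.11, edgeR adjusted p = 0.0561) and Nars 0.28 (SE 0.09, edgeR adjusted p = 0.0828), each with no overlap and short of the threshold. DESeq2 called Rars and Nars besides Farsb, and Tars2 and Iars2 among the mitochondrial genes, against 13% of all genes. Tars2 was 0.48 above saline in edgeR (SE 0.15, adjusted p = 0.0826), Mars2 0.57 (SE 0.29) and Yars2, the tyrosyl enzyme, 0.38 (SE 0.23). Yars2 was at 13.3 CPM in NaBu library 6 and 6.41 to 10.1 CPM in the other 8 libraries, and its difference was 0.10 without that library. After Cars the lowest cytosolic differences were those of Yars (-0.09) and Tars (0.01), and the 3 lowest mitochondrial ones those of Rars2 (0.00), Aars2 (0.04) and Fars2 (0.05).

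Genes around the synthetases were read from lists drawn up by function. Among the 10 other genes for aminoacyl-tRNA that were tested, 8 were higher in NaBu than in Ang II (median 0.22, 0 called), where Tarsl2, a second threonyl enzyme, was highest (0.58, SE 0.20) and Pstk, the kinase on the selenocysteine pathway, lowest (-0.30, SE 0.10). Against saline 1 of these 10 rose: Gatc, a subunit of the amidotransferase that makes mitochondrial glutaminyl-tRNA, by 0.47 (SE 0.09, edgeR adjusted p = 0.0267), where 3.01% of all genes rose. That call was lost without saline library 1 or 2, Ang II library 2 or 3 or any 1 NaBu library (adjusted p up to 0.12). Gatc was at 25.8 to 26.6 CPM in saline, 26.3 to 30.5 CPM in Ang II and 35.4 to 37.0 CPM in NaBu.

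The factors of mitochondrial translation use the charged tRNA of the mitochondrial set. All 10 were above Ang II (median 0.43, 0 called) and all 10 above saline (median 0.51). At an unadjusted p under 0.05 in edgeR, 7 of the 10 were above Ang II, beside 11.3% of all genes. Against saline 4 of the 10 rose in edgeR, beside 3.01% of all genes: Tsfm, an elongation factor, by 0.97 (SE 0.21), Mtrf1, a release factor, by 0.55 (SE 0.12), Mrrf, the ribosome recycling factor, by 0.49 (SE 0.11), and Guf1, a back-translocating GTPase, by 0.46 (SE 0.10), with adjusted p from 0.0339 to 0.0363. Each of the 4 calls was lost without Ang II library 2 or 3 or any 1 NaBu library, those of Tsfm and Mtrf1 also without saline library 1, those of Mtrf1 and Guf1 also without saline library 2, and that of Mrrf without either (adjusted p up to 0.149). Tsfm was at 7.17, 4.66 and 8.28 CPM in saline, 8.40, 8.68 and 6.70 CPM in Ang II and 13.9, 12.1 and 13.2 CPM in NaBu, with no overlap. Of the 12 mitochondrial tRNA processing genes tested 2 rose against saline, beside 3.01% of all genes. Trnt1, which adds the CCA end to tRNA, rose by 0.63 (SE 0.14, edgeR adjusted p = 0.0363). Trmt10c, a tRNA methyltransferase of mitochondrial RNase P, rose by 0.59 (SE 0.11, edgeR adjusted p = 0.0216). Both calls were lost without any 1 NaBu library, and that of Trnt1 also without saline library 2 or 3 or any 1 Ang II library (adjusted p up to 0.116). Over that list 9 of 12 were above Ang II (median 0.18, 0 called). The cardiomyocyte markers moved with these lists too, and their part was not tested.

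The amino acid response genes did not show a common direction. Of the 24 that averaged at least 1 CPM, 14 were higher in NaBu than in Ang II (median 0.04) and 9 were higher than in saline (median -0.10). Listed genes below that level were tested too but are left out of these counts. Their differences from Ang II ran from -0.57 (Cth, SE 1.21) to 1.70 (Chac1, SE 1.80), and none was called. Vldlr, a lipoprotein receptor, rose against Ang II (0.67, SE 0.14, edgeR adjusted p = 0.0465). It was the 1 gene of the list that passed there, beside 0.647% of all genes that rose. Against saline 0 passed. At an unadjusted p under 0.05 in edgeR there were 5 of the 24, 4 higher and 1 lower than in saline, beside 24.6% of all genes. The call of Vldlr was lost without saline library 1 or any 1 of the Ang II or NaBu libraries (adjusted p up to 0.201). Asns, the asparagine synthetase, a classic ATF4 target, was at 2.38, 2.27 and 1.80 CPM in Ang II and 1.61, 1.49 and 1.37 CPM in NaBu, a difference of -0.52 (SE 0.40, edgeR adjusted p = 0.476). Atf4 itself, named here because the promoter search concerns it, was 0.27 above Ang II (SE 0.09, edgeR adjusted p = 0.13) with no overlap, and Eif2ak4, the Gcn2 kinase, was at -0.35 (SE 0.12, edgeR adjusted p = 0.137). Of the 16 genes for eIF2, its kinases, phosphatases and exchange factor 11 were above Ang II (median 0.16, 0 called), and against saline 2 rose, the eIF2 subunits Eif2s1 (0.39, SE 0.08, edgeR adjusted p = 0.0306) and Eif2s3 (0.42, SE 0.09, edgeR adjusted p = 0.0327), beside 3.01% of all genes. Both were lost without Ang II library 2 or 3 or any 1 NaBu library, Eif2s1 also without saline library 1 and Eif2s3 without saline library 2 (adjusted p up to 0.13). Of 6 cytosolic elongation factors 5 were above Ang II (median 0.19, 0 called), from Eef1a1 at -0.15 to Eef1a2, the muscle form of the same factor, at 0.49.

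The deposited tables give 1 line per RefSeq transcript, and 90 lines carried the 36 synthetases. Of these genes 26 had more than 1 line, up to 10 in Fars2, and in 7 of the 26 the line with the most counts was not the same one in all libraries. In each of the 7 the leading line changed inside a group. Wars2 also differed between groups. Its line NM_001168641.1 held 62.0% to 67.6% in saline, 42.2% to 56.1% in Ang II and 18.0% to 59.3% in NaBu. For Cars, NM_001106319.1 held 0.87% of the counts in Ang II library 1 and 4.27% in NaBu library 2, and 74.3% to 95.9% in the other 7. For Rars2, NM_001106643.2 held 0% in saline library 3 and Ang II library 1, 37.7% in saline library 1 and at least 89.7% in the other 6. For Pars2, the prolyl enzyme of mitochondria, NM_001014064.1 held 100% in 5 libraries and at most 3.23% in the other 4.

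The gene total of Cars was 17.4 CPM in Ang II library 1, the lowest of its group, and 17.3 CPM in NaBu library 2. It was 16.1 CPM in NaBu library 4, where the same transcript held 95.9%, and 19.0 to 23.5 CPM in the other 6. A fit on the highest transcript of each gene in place of the sum turned Rars2 from -0.21 to 0.41 for Ang II against saline. For Farsb, NM_001004252.1 held 93.9% to 100% of the counts in every library, and for Tars2 the first transcript held 91.8% to 96.3%. In the fit on the highest transcript Farsb was 0.44 above Ang II and 0.42 above saline and was not called (edgeR adjusted p = 0.155 and 0.105).

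**Figure D5:**
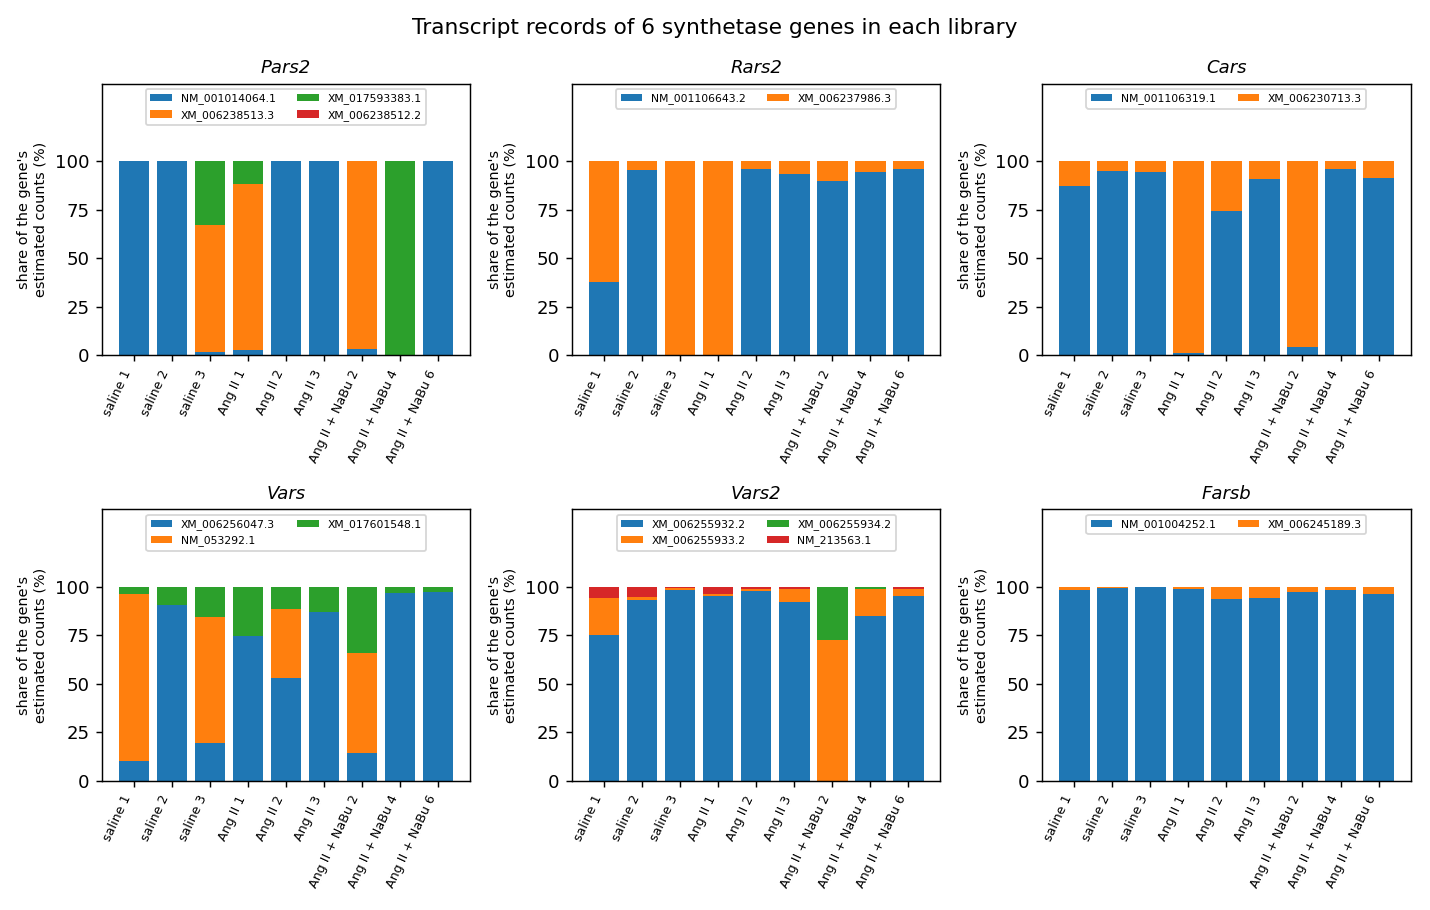
Share of a gene's estimated counts (vertical axes, percent) on each deposited transcript record, in each library (horizontal axes), for 6 synthetase genes. The leading record of Pars2, Rars2, Cars, Vars and Vars2 changes between libraries of the same group, while 1 record of Farsb keeps at least 93.9% in every library.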

How the data were processed

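RNA of 9 left ventricle samples was sequenced from TruSeq libraries, per the labels' protocols. The authors deposited estimated counts per RefSeq transcript, in 1 table per group with 1 column per library, per the file headers. In the saline table a stray line-end character in the last column was stripped, and its deposited values were then whole-number estimated counts like the others. Bowtie 0.12.2 and the build mm8, a mouse build, are named in the submitters' processing notes. For the counting tool and strand use, the sources used here give nothing, so reads shared by related genes may be misassigned. Low values piled up at 4 and 5 (8661 values) and at 8 and 9 (6088), with fewer at 6 and 7 (5197), so a count may not be 1 fragment, and what it stands for was not tested. The NaBu columns carry the numbers 2, 4 and 6 and were matched to the group only.

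Counts were summed by gene name and compared with edgeR 4.0.16 in R 4.3.3 (quasi-likelihood test, TMM factors from 0.887 to 1.14, filterByExpr, all 3 groups in 1 fit, Benjamini-Hochberg adjustment over 15467 genes, called at 0.05). The prior count for fold changes was 0.125, and levels are CPM on TMM-scaled totals. The fits were tested on simulated data with the same spread for every gene. A pass was required only for changes larger than any synthetase difference reported here, so that test does not cover small differences. DESeq2 1.42.0, other scalings, no filter, counts divided by 4, the highest transcript and the leaving out of libraries were alternatives. A permutation test planned for the cytosolic minus mitochondrial difference was not run, since the genes were chosen with results known. Transcript lengths were not at hand, so levels of different genes are not ranked. The members and gene lists were chosen with earlier results of these data known. Per-library values are given for called members and for the 3 highest and 3 lowest of each compartment in a comparison, apart from Wars2. Some of these values stand as ranges, and for some genes a group is left out. Other genes named were added after their values were seen. For 1 of the 36 members, and 1 gene beside them, the values are counted in the totals but not reported here. Same-numbered saline and Ang II libraries did not deviate together (r = -0.004, -0.033 and 0.008).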

Additional observations from a re-analysis of the deposited data

How the results depend on the processing

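With 3 libraries a group the counts of called genes moved with the settings more than the log2 differences did. Over the settings other than the leaving out of 1 library, 28 to 33 of the 36 synthetases were higher in NaBu than in Ang II. Scaling by library totals lowered the median of all genes from -0.03 to -0.13 and the cytosolic median from 0.20 to 0.088, while the cytosolic median stayed 0.22 above that of all genes under both scalings.

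For Ang II against saline, all genes called numbered 57 with DESeq2, 1 with only the groups compared, 3 with the highest transcript and 11 without saline libraries 2 and 3, against 0 in the main setting, and from 0 to 7 without single libraries. The cytosolic median ran from -0.14 to 0.05 and the mitochondrial one from -0.03 to 0.12 without single libraries. With the replicate number as a replicate block 0 genes were called, and the medians were -0.04 (cytosolic) and 0.03 (mitochondrial). The fit without saline libraries 2 and 3 leaves 1 saline library, which is assumed to vary like the other groups. No paired analysis was possible for NaBu because its column numbers share only 1 number with the other groups.

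For NaBu against Ang II, cytosolic genes called were 0 with upper-quartile scaling, with library totals, with no filter and with the highest transcript, 5 with only the groups compared and 2 without saline libraries 2 and 3, and 0 to 2 without single libraries. Mitochondrial genes called were 1 with DESeq2, with only the groups compared and without saline libraries 2 and 3, and 0 to 2 without single libraries. All genes called, 248 in the main setting, were 4 with library totals, 1521 with DESeq2, 1802 with only the groups compared, 5 with the highest transcript, 1695 without saline libraries 2 and 3, and 1 to 1482 without single libraries. The cytosolic median ran from 0.20 to 0.26 and the mitochondrial one from 0.075 to 0.31 without single libraries.

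For NaBu against saline, cytosolic genes called were 0 with library totals, with only the groups compared, with the highest transcript and without saline libraries 2 and 3, 3 with DESeq2, 2 with counts divided by 4, and 0 to 2 without single libraries. Mitochondrial genes called were 2 with DESeq2 and 0 to 1 without single libraries. All genes called, 782 in the main setting, were 411 with library totals, 2007 with DESeq2, 9 with only the groups compared, 21 with the highest transcript, 109 without saline libraries 2 and 3, and 6 to 1303 without single libraries. The cytosolic median ran from 0.10 to 0.29 and the mitochondrial one from 0.19 to 0.33. The summed cytosolic level with library totals was 1138 CPM in Ang II and 1220 CPM in NaBu.

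Single genes changed sign, and not all of them were near 0 in the main fit. For NaBu against Ang II, the lowest differences over the alternative fits were -0.55 for Pars2, -0.51 for Vars2 and -0.15 for Iars. In the main fit these were 0.255, 0.11 and 0.16. For NaBu against saline, Iars had a lowest difference of -0.68, against 0.087 in the main fit. With the highest transcript the differences were 0.41 for Rars2 and -0.32 for Cars2 (Ang II against saline), -0.037 for Lars and -0.047 for Aimp2 (NaBu against Ang II), and 1.05 for Rars2 and -0.51 for Aars2 (NaBu against saline). With upper-quartile scaling they were -0.019 for Lars, -0.005 for Cars2 and -0.007 for Mtif3 (NaBu against Ang II) and -0.021 for Tars (NaBu against saline). With library totals they were -0.092 for Lars, -0.078 for Cars2, -0.006 for Aimp1, -0.003 for Hars2 and -0.080 for Mtif3 (NaBu against Ang II) and -0.025 for Tars (NaBu against saline). Fars2 (NaBu against Ang II) was 0.009 with relative log expression, 0.001 with no filter, 0.010 with DESeq2, 0.006 with counts divided by 4 and 0.001 without saline libraries 2 and 3. Rars2 (NaBu against saline) was 0.016 with relative log expression and with DESeq2, 0.001 with no filter, 0.009 with only the groups compared, 0.011 with counts divided by 4 and 0.072 without saline libraries 2 and 3, and Fars2 was -0.19 without saline libraries 2 and 3. Without single libraries, ranges that crossed 0 for Ang II against saline were -0.28 to 0.093 for Gars, -0.35 to 0.16 for Sars2 and -0.33 to 0.12 for Mars2. For NaBu against Ang II they were -0.010 to 0.063 for Lars, -0.14 to 0.12 for Aars2, -0.035 to 0.079 for Fars2, -0.006 to 0.12 for Cars2 and -0.014 to 0.071 for Mtif3. For NaBu against saline they were -0.074 to 0.12 for Tars, -0.11 to 0.15 for Rars2, -0.083 to 0.24 for Aars2 and -0.005 to 0.20 for Fars2. The cause of these shifts was not tested, and the fits that leave libraries out also hold fewer of them.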
